A study of Mus musculus with 8 samples.

Results

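Fos, Fosb, Fosl1, Fosl2, Jun, Junb, Jund, Egr1, Egr2 and Ier2 are genes of the immediate early response, and they were chosen here by name. All 10 were found by symbol among the 22609 genes of the deposited count table, and all 10 passed edgeR's filter on low counts in each comparison. Their levels were followed in immortalized mouse dental papilla cells, the mesenchymal cells from which odontoblasts arise. The iBmp2 fx/fx cells (fx/fx cells) carry both Bmp2 alleles with loxP sites and serve as the control, and the iBmp2 ko/ko cells (ko/ko cells) carry the knock-out. Total RNA of each genotype was sequenced after 6, 24, 48 and 72 h of culture, with 1 library per genotype and time. Each genotype is represented by a cell line, and the culture times stand in for replicates, so the spread within a genotype holds any change with time. The text deposited as the design names 8 h in place of 6 h, and the times given here are those of the library labels.

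AP-1 is a dimer of a Jun protein with a Fos protein or with another Jun protein, and it binds short DNA elements that are shared by many genes of growth, matrix turnover and wound repair. Growth factors, serum and mechanical stress raise transcription of Fos, Fosb, Junb, Egr1, Egr2 and Ier2 quickly and for a short time, through ERK and p38 kinases, serum response factor and CREB, whereas Fosl1 and Fosl2 usually follow later and Jund is produced steadily. Egr1 and Egr2 are zinc finger factors that are held in check by the Nab co-repressors.

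The libraries held between 25890110 and 32415665 reads counted on genes, so that 3 counts, taken as the smallest detectable level, equal 0.0925 to 0.116 CPM (counts scaled to the reads on genes of each library, with edgeR's TMM factors). Bmp2 was represented by a total of 1 read, in the fx/fx library of 24 h, so the genotype labels could not be checked by it. The library labelled ko/ko at 24 h stood apart: of the 291 genes called between the genotypes at the other times, 287 were nearer in it to the mean of the fx/fx libraries. It is therefore given apart, and the results for the 10 genes are stated with and without it. Mesenchymal markers (7 of 7 over 3 counts) summed to 8085 to 9865 CPM in the fx/fx libraries to 12041 to 17121 CPM in the ko/ko libraries of 6, 48 and 72 h, all above the fx/fx values, and to 9275 CPM in the library labelled ko/ko at 24 h. Of the 7, 1 (Thy1, by 1.17 on the log2 scale, adjusted p = 0.0297) rose and 0 fell in the ko/ko cells over the 6 libraries (2.22% of all genes were called), and with culture time as a block 5 were higher (11.3% of all genes) and 1, Pdgfra, lower (11.4%, which holds for the marker counts with the block that follow). Of the markers of dental mesenchyme, 8 of 10 were over 3 counts, with sums of 434 to 627 and 373 to 499 CPM (3 of 8 tested lower with the block), while Barx1 and Lhx8 were at most at 3 counts throughout, as was Dspp of odontoblasts. Epithelial markers summed to at most 1.85 CPM, endothelial markers to 3.63 CPM and glial markers to 2.53 CPM in any library. With the block the 1 epithelial marker tested, Krt14, was lower, and of the 2 endothelial markers tested Kdr was lower and Tek higher (11.3% of all genes). Leukocyte markers summed to 4.19 to 14.2 CPM in the fx/fx and 2.78 to 3.37 CPM in the ko/ko libraries of 6, 48 and 72 h, all below the fx/fx values (both markers tested lower with the block). Their sum was 6.08 CPM in the library labelled ko/ko at 24 h, and Emr1 was at 0 in all libraries. The part of these marker differences in the results below was not tested, and in RNA of whole cultures fewer cells of a type and less RNA per cell cannot be told apart.

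The sequences before the start sites of Fos, Junb and Jun are shown because Fos and Junb differed most between the genotypes and Jun was, with Fosl1 and Fosl2, among the 3 of the 10 that differed most with culture time. They are RefSeq promoters (table of build GRCm38.p6), each matched once to mm9, and the 250 bases before the start are printed 5′ to 3′ on the strand of the gene. Capitals mark TGACG, the first bases of the CREB element TGACGTCA, in Fos and Junb, TATAAA in Fos, and TGACATCA, a match to TGANNTCA, in Jun. The regions are chr12:86814590-86814839 on the plus strand for Fos, chr8:87502648-87502897 on the minus strand for Junb and chr4:94718914-94719163 on the minus strand for Jun.
Fos: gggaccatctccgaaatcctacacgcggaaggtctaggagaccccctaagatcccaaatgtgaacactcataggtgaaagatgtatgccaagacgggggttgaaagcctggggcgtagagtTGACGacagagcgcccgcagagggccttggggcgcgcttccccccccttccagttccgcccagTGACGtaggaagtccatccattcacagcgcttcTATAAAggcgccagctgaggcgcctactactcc
Junb: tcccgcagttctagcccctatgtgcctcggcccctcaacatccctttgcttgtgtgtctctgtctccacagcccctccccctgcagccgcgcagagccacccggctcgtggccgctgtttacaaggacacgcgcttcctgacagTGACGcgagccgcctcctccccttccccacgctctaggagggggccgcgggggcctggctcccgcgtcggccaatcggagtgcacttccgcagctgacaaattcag
Jun: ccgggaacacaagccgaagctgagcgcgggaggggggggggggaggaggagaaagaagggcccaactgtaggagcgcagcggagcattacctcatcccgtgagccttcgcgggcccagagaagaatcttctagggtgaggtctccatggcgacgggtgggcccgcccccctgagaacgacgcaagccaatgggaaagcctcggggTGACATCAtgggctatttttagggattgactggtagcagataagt
In Fos, TGACG lies 129 to 125 and 66 to 62 bases before the start and TATAAA 33 to 28 bases before it, and in Junb TGACG lies 106 to 102 bases before it. TGACATCA of Jun lies 45 to 38 bases before the start and TGAAATCA of Jund, the other match to TGANNTCA, 61 to 54 bases before it. Both strands were searched in the windows of 7 of the 10 genes, and the table held no entry for Fosl1, Egr1 or Ier2. Of all 32851 windows of this length, 17.8% hold TGACG, 1.55% TGACGTCA, 11.9% TGANNTCA, 6.75% TGANTCA, 12.4% TATAAA, 9.59% GGCGCC, 4.7% GCGNGGGCG (an Egr element) and 1.47% a CArG box, the site of serum response factor. TGACG and TGANNTCA can each lie within TGACGTCA. A CArG box was matched in 4 of the 5 start windows of Egr2 and in no window of the other 6 genes, while TGACG was also matched in Fosb (60 to 56 bases before the start) and in 3 windows of Egr2. GCGNGGGCG was matched in Fosl2 (79 to 71 bases before the start) and Fosb (50 to 42), GGCGCC in Fos, Fosb and Fosl2, and TGACGTCA and TGANTCA in no window of the 7 genes. These are matches of letters in a window and no evidence of binding. Bases farther than 250 before a start were not searched, so an element not matched here can lie outside the window.

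Compared per exon length as RPKM, the genes ranged over 3 levels that were not fully apart. Junb was the most abundant, with a median of 131 RPKM over the 8 libraries (range 51.5 to 217), followed by Jund (58.1), Ier2 (48.5), Fosl2 (32.1), Egr1 (27.6) and Jun (24.3), and the ranges of neighbours in this order overlapped. Fosl1 (median 7.10 RPKM), Fos (4.98) and Egr2 (2.72) formed a second level, in which ranges overlapped as well, and the highest Fosl1 value of 14.6 RPKM lay under the lowest Jun value of 15.2 RPKM but above the lowest Fosl2 value of 13.0 RPKM. Fosb was the least abundant at 0.379 to 0.890 RPKM, below every value of Egr2. Junb ranked first in 7 of the 8 libraries, and in the ko/ko library of 6 h Jund ranked first with 80.5 RPKM against 51.5 RPKM for Junb. Over the libraries Fosl1 varied most, with a highest level 9.41 times the lowest, and Ier2 least, with 1.45 times.

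**Figure D1:**
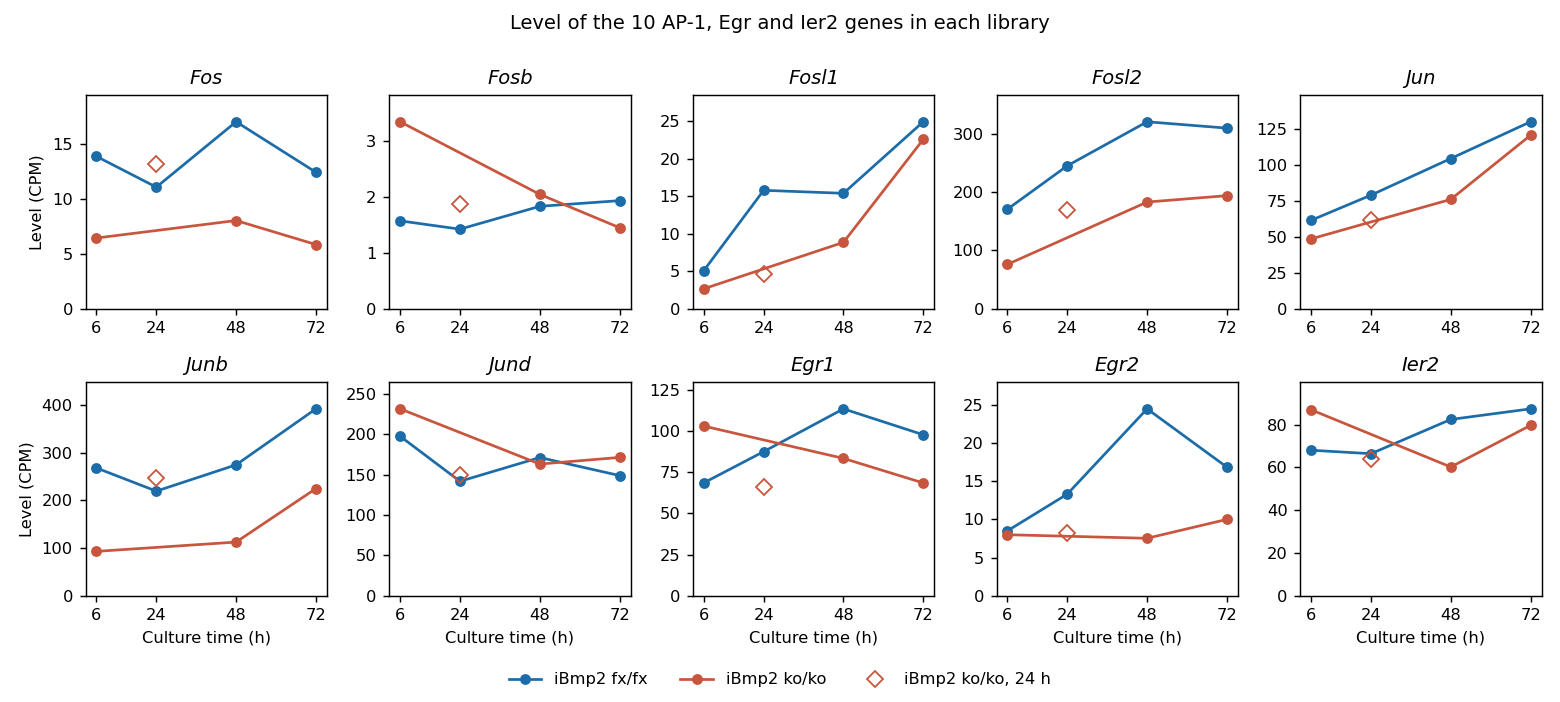
Level of each gene in CPM (vertical axes, each from 0) against culture time in hours for the fx/fx cells (blue) and the ko/ko cells (red), 1 library per point. The library labelled ko/ko at 24 h is the open diamond and is not joined to the others. Fos and Junb are lower in the ko/ko cells at 6, 48 and 72 h, whereas Fosl1, Fosl2 and Jun are at their lowest at 6 h in both genotypes.

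Fos and Junb, a classical pair of serum-induced AP-1 genes, were lower in the ko/ko cells at each of 6, 48 and 72 h. Over these times all their ko/ko values lay below all fx/fx values, as for 10.1% of all genes. Neither passed the adjusted limit in edgeR's quasi-likelihood test without a block (adjusted p = 0.0908 and 0.199). Fosl2 was lower in the ko/ko cells at all 4 times but differed by as much between 6 h and the later times. Jund, Egr1, Fosb and Ier2 showed no difference between the genotypes that passed a limit. The comparison asked which genes differ between the ko/ko and fx/fx cells and was tested over the 6 libraries of 6, 48 and 72 h, the times in the study's methods. As each genotype is a cell line, loss of Bmp2 cannot be told apart here from other differences between the lines.

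Fos (chromosome 12, 86814840 to 86818223 of mm9, plus strand, 4 exons), the gene that names the family, was at 13.8, 17.0 and 12.4 CPM in the fx/fx libraries of 6, 48 and 72 h and at 6.42, 8.01 and 5.83 CPM in the ko/ko libraries. Every ko/ko value lay below every fx/fx value, and the ratio was nearly the same at the 3 times, with 0.464, 0.472 and 0.470. The means were 14.4 ± 2.35 and 6.75 ± 1.13 CPM (SD, n = 3). The log2 fold change of -1.09 (SE 0.25) missed the adjusted limit without a block (adjusted p = 0.0908 in edgeR's quasi-likelihood test) and passed it with culture time as a block (adjusted p = 0.00265). At 24 h the values were 11.04 CPM in the fx/fx cells and 13.1 CPM in the library labelled ko/ko, whose ratio of 1.19 has a 95% counting interval of 1.02 to 1.39. This interval, like the others, covers counting error between a pair of libraries only.

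Junb (chromosome 8, 87500811 to 87502617, minus strand, 1 exon), a Jun protein often found to restrain growth, was at 268, 275 and 392 CPM in the fx/fx libraries of 6, 48 and 72 h and at 93.0, 113 and 225 CPM in the ko/ko libraries. The groups did not overlap, and the ratio moved from 0.347 at 6 h through 0.410 at 48 h to 0.573 at 72 h. Its means were 312 ± 69.8 and 143 ± 71.1 CPM (SD, n = 3), and its log2 fold change was -1.14 (SE 0.35, adjusted p = 0.199 in edgeR's quasi-likelihood test). With culture time as a block the log2 fold change was -1.21 (SE 0.14, adjusted p = 0.00136). At 24 h the order turned here too, with 219 CPM in the fx/fx library and 247 CPM in the library labelled ko/ko.

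Fosl2 (chromosome 5, 32438845 to 32460204, plus strand), also known as Fra-2, was at 170, 245, 320 and 309 CPM in the fx/fx libraries and at 75.9, 169, 183 and 194 CPM in the ko/ko libraries of 6, 24, 48 and 72 h. At each time the ko/ko library was the lower one, with ratios of 0.445, 0.692, 0.570 and 0.626, but the fx/fx value of 6 h lay within the ko/ko range. Its log2 fold change over the 6 libraries was -0.84 (SE 0.39, adjusted p = 0.412) without the block, and -0.89 with an SE of 0.12 (adjusted p = 0.00240) with it. Fosl1 (chromosome 19, 5447703 to 5455945, plus strand), or Fra-1, was at 5.08, 15.8, 15.4 and 24.96 CPM and at 2.65, 4.62, 8.85 and 22.6 CPM in the same order. It was lower in the ko/ko library at each time, least so at 72 h, where the ratio of 0.906 had an interval that includes 1 (0.810 to 1.01). Its log2 fold change moved from -0.45 (adjusted p = 0.865) to -0.61 (adjusted p = 0.0480) with the block. Without the block it was -1.40 when the ko/ko library of 72 h was left out, 0.015 without that of 6 h and 0.13 without the fx/fx library of 72 h. Its size and sign in the fits without the block thus turn on single libraries. No library was left out in fits with the block. Of its exonic bases, 1162 (68.1%) are also exonic in Ccdc85b on the opposite strand, a gene at 31.7 to 61.1 CPM, and since the strand setting of the counting is not given in the sources used here, the level of Fosl1 is uncertain.

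Fosb (chromosome 7, 19888070 to 19895394, minus strand), which like Fos makes an activating partner of Jun, had 35 to 102 counts per library. Its levels were 1.57, 1.42, 1.83 and 1.93 CPM in the fx/fx libraries and 3.34, 1.88, 2.04 and 1.45 CPM in the ko/ko libraries. Only the ko/ko library of 6 h stood out, with a ratio of 2.13 (1.504 to 3.05), and the log2 fold change of 0.37 did not pass a limit (adjusted p = 0.764).

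Jun (chromosome 4, 94715725 to 94718913, minus strand), the founding Jun gene and its own target, was at 61.4, 78.9, 104 and 130 CPM in the fx/fx libraries and at 48.5, 61.3, 75.9 and 121 CPM in the ko/ko libraries. It was 0.728 to 0.928 times as high in the ko/ko library at the 4 times, but the genotypes overlapped, and the log2 fold change of -0.29 had an adjusted p of 0.810 without and 0.0720 with the block. Of the exonic bases of Jun, 232 (7.28%) are shared with the antisense lncRNA BC042782, which had 131 to 335 counts against 1481 to 3971 for Jun. Jund (chromosome 8, 73221638 to 73224515, plus strand) was at 198, 142, 171 and 149 CPM and at 232, 149, 163 and 171 CPM, and the ranges overlapped (log2 fold change 0.13, adjusted p = 0.857). Of its exonic bases, 543 (18.9%) are shared with Gm11175 on the opposite strand, whose counts were not used here, so the level of Jund and its differences are uncertain to that extent.

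Egr2 (chromosome 10, 66998223 to 67004936, plus strand) was at 8.50, 13.3, 24.5 and 16.8 CPM in the fx/fx libraries and at 7.99, 8.26, 7.52 and 9.999 CPM in the ko/ko libraries. The genotypes were close at 6 h, with a ratio of 0.940 (0.787 to 1.12), and at 48 h the ratio was 0.307 (0.264 to 0.356). Over the 6 libraries its log2 fold change was -0.97 (SE 0.38, adjusted p = 0.317), and -0.86 with the block (adjusted p = 0.0650). Egr1 (chromosome 18, 35020861 to 35024638, plus strand) was at 68.6, 87.6, 114 and 97.9 CPM and at 103, 65.9, 83.5 and 68.6 CPM. It was higher in the ko/ko library at 6 h (ratio 1.503) and lower at 24, 48 and 72 h (0.752, 0.735 and 0.701), and its log2 fold change was -0.13 (adjusted p = 0.876). Ier2 (chromosome 8, 87185230 to 87186751, minus strand), a small nuclear protein, was at 68.0, 66.4, 82.4 and 87.4 CPM and at 86.9, 63.8, 60.2 and 79.7 CPM, likewise above the fx/fx library at 6 h only (log2 fold change -0.07, adjusted p = 0.918).

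**Figure D2:**
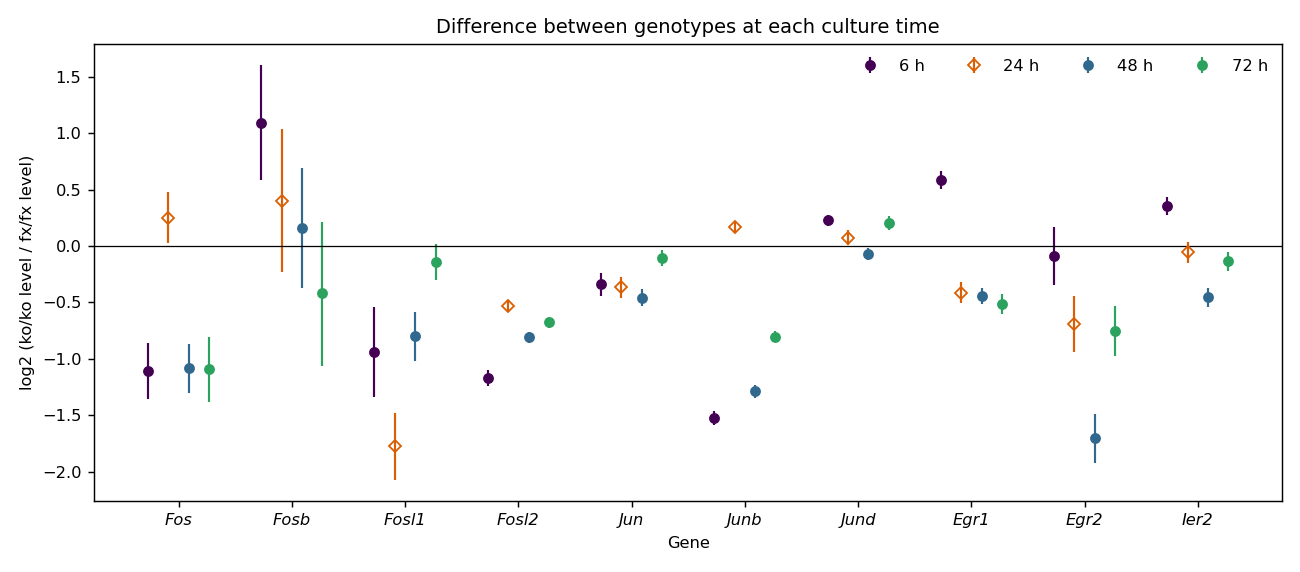
Ratio of the ko/ko level to the fx/fx level on a log2 scale (vertical axis) for each gene (horizontal axis) and culture time (colours), each from 1 pair of libraries. Bars are 95% counting intervals and leave out variation between cultures, and open diamonds are the libraries of 24 h. For Fos the points of 6, 48 and 72 h coincide near -1.1 and that of 24 h is at 0.25, and for Egr1 the point of 6 h is above 0 and the others below.

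In all, 8 of the 10 genes had a log2 fold change below 0 over the 6 libraries, with a median of -0.37 against 0.03 for all 13121 genes tested. At the adjusted limit of 0.05, 0 of the 10 were called by edgeR, where 2.22% of all genes were called. The test called 3 of the 10, Fos, Junb and Egr2, at an unadjusted p under 0.05 (14.0% of all genes), and 2 of the 10, Fos and Junb, at the study's limit, read here as this p with an absolute log2 fold change over 1 (7.35%). DESeq2 called Fos and Junb at its adjusted limit (6.65% of all genes), and limma on log2 CPM called 0 (2.26%). The 3 ko/ko libraries lay wholly below the 3 fx/fx libraries for Fos and Junb, as for 10.1% of all genes, and over all 8 libraries the genotypes overlapped for each of the 10 (they did not for 3.79% of all genes). With culture time as a block, 4 of the 10, Fos, Fosl1, Fosl2 and Junb, were downregulated at the adjusted limit, where 11.4% of all genes were called lower. With the fx/fx library of 24 h added, 1 of the 10, Fos, passed it (3.66% of all genes), and with a term for later times 2 did, Fos and Fosl2 (6.35%). Over all 8 libraries 0 of the 10 passed the adjusted limit, as 0 genes did without the block and 0.337% with it. At the unadjusted p the numbers were 4 of the 10 without the block (10.2% of all genes) and 6 of the 10 with it (24.8%).

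The library labelled ko/ko at 24 h was placed by its distance in log2 CPM to the mean of each genotype over 6, 48 and 72 h. It was closer to the fx/fx mean for 4 of the 10, Fos, Fosb, Junb and Jund, and nearer to that of the ko/ko libraries for Fosl1, Fosl2, Jun, Egr1, Egr2 and Ier2. For Fosl1, Jun, Jund, Egr1, Egr2 and Ier2 it lay below both means, so the nearer mean is there only the lower one. The fx/fx and ko/ko means were also close for Jund (7.43 and 7.55), Egr1 (6.52 and 6.40) and Ier2 (6.31 and 6.23). For Fosl1 it was far below its partner of 24 h, at 0.292 times the fx/fx level (0.237 to 0.357). The fx/fx library of 24 h was nearer to its own genotype for 8 of the 10, with Jun and Ier2 as the exceptions.

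Fosl1, Fosl2 and Jun were higher at the later times than at 6 h in both genotypes, and Jund was lower. Fosl1 differed most, with about a 4.45-fold higher level, while the levels of Fos, Egr1 and Ier2 taken over both genotypes were close to those at 6 h. The comparison set the 2 libraries of 6 h against 5 later libraries, without the one labelled ko/ko at 24 h, with genotype as a term. No gene of the 13470 tested reached the adjusted limit in edgeR, where 2755 had an unadjusted p under 0.05, DESeq2 called 1082 and limma 16, or 0.119% (3 and 0 of them among the 10), so no member can be called to have changed with time by the main test.

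For Fosl1 the ratio to 6 h was 3.11, 3.03 and 4.91 at 24, 48 and 72 h in the fx/fx cells, and 3.34 and 8.52 at 48 and 72 h in the ko/ko cells. All 5 later libraries lay above both libraries of 6 h, and the library labelled ko/ko at 24 h was 1.74 times its 6 h partner. The log2 fold change was 2.15 (SE 0.44, adjusted p = 0.119 in edgeR's quasi-likelihood test). Ccdc85b, which shares exonic bases with Fosl1, went from 37.2 to 56.7 CPM in the fx/fx and from 61.1 to 54.9 CPM in the ko/ko cells between 6 and 72 h.

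For Fosl2 the ratios to 6 h were 1.44, 1.88 and 1.81 in the fx/fx cells and 2.41 and 2.55 at 48 and 72 h in the ko/ko cells, with 2.23 in the library labelled ko/ko at 24 h. Its log2 fold change was 0.99 (SE 0.18, adjusted p = 0.114), and that of Jun was 0.85 with an SE of 0.25 (adjusted p = 0.165). Both had later values above both values of 6 h in these 7 libraries, and Jun had its highest value at 72 h in each genotype, 2.12 and 2.49 times its 6 h level. The library labelled ko/ko at 24 h lay just under the fx/fx library of 6 h for both, at 169 against 170 CPM for Fosl2 and 61.3 against 61.4 CPM for Jun, and Jun was there at 1.26 times its ko/ko level of 6 h. For Jund, the steady member, the later libraries lay at 142 to 171 CPM, all below the 198 and 232 CPM of 6 h (log2 fold change -0.44, SE 0.13, adjusted p = 0.165).

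Of the 10 genes, 4 had an unadjusted p under 0.05 for time, where 20.5% of all genes had one, and 1, Fosl1, passed the study's limit (5.35%). The later libraries did not overlap those of 6 h for these 4 genes, as for 21.5% of all genes, so the members' share is to be read against a common pattern. With the library labelled ko/ko at 24 h among the later ones, Fosl1, Fosl2 and Jun overlapped and 1 of the 10, Jund, did not, as for 12.7% of all genes. DESeq2 called Fosl1 (adjusted p = 3.59e-05), Fosl2 (8.55e-05) and Jun (0.0312), where it called 8.03% of all genes. Over the 10 genes the median log2 fold change was 0.22, against 0.00 for all genes tested.

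**Figure D3:**
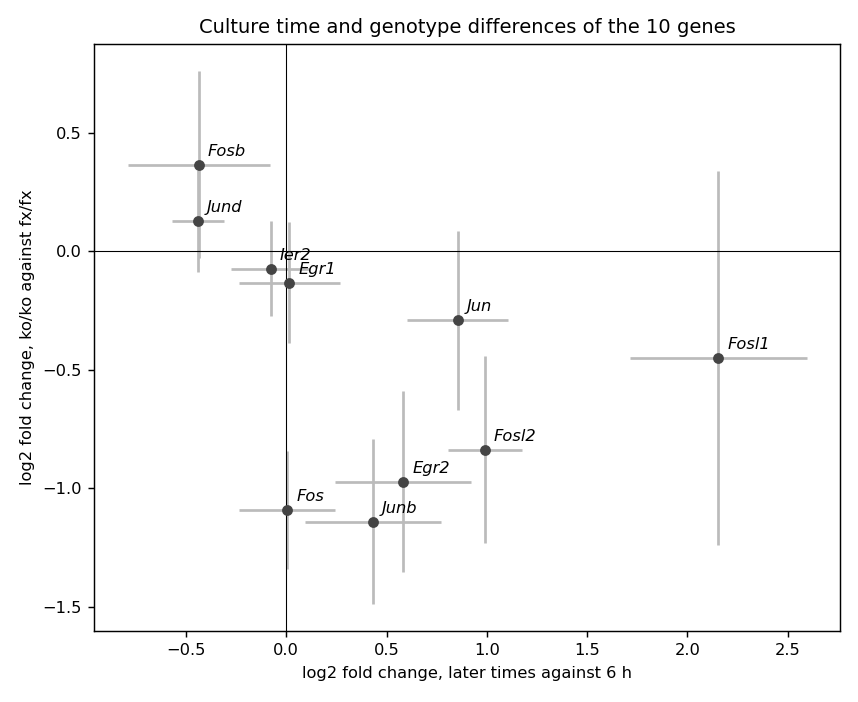
Log2 fold change of later times against 6 h (horizontal axis, 7 libraries) and of ko/ko against fx/fx (vertical axis, 6 libraries) for the 10 genes from edgeR, with bars of 1 standard error. The comparisons share 6 libraries. Fosl1 lies farthest to the right at 2.15, and Fos and Junb lie lowest at -1.09 and -1.14.

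Whether the change after 6 h differed between the genotypes was tested by the interaction of genotype and time in the same 7 libraries. For Egr1 the later fx/fx libraries of 24, 48 and 72 h were at 1.28, 1.66 and 1.43 times the level of 6 h, and the ko/ko libraries of 48 and 72 h at 0.810 and 0.665 times. The library labelled ko/ko at 24 h was at 0.638 times, so that the genotypes went opposite ways in each later library. The interaction was -1.03 on the log2 scale with an SE of 0.34 (adjusted p = 1.00), and Egr1 alone of the 10 had an unadjusted p under 0.05, where 1.18% of all 13845 genes tested had one. At the adjusted limit edgeR and DESeq2 each called 0 genes. Egr2 had a like difference of -1.03 with a larger SE of 0.57 (adjusted p = 1.00), its fx/fx level being 1.57 to 2.88 times that of 6 h at the later times and its ko/ko level 0.942 to 1.25 times.

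Within the families the makeup differed by gene. Fosl2 gave 67.2 to 77.3% of the summed RPKM of Fos, Fosb, Fosl1 and Fosl2 in each library, Fosl1 7.17 to 26.9% and Fos 5.04 to 15.3%. The sum of the Fos family had a median of 63.8 RPKM in the fx/fx libraries (38.4 to 73.2) and of 39.0 RPKM in the ko/ko libraries (18.1 to 49.2). Junb gave 62.1 to 70.1% of the Jun family in the fx/fx libraries, and in the ko/ko libraries 35.0, 43.6 and 56.1% at 6, 48 and 72 h and 65.8% at 24 h. Jund was the largest share of the Jun family only in the ko/ko library of 6 h, with 54.7%. Egr1 gave 83.6 to 93.4% of the summed RPKM of Egr1 and Egr2.

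**Figure D4:**
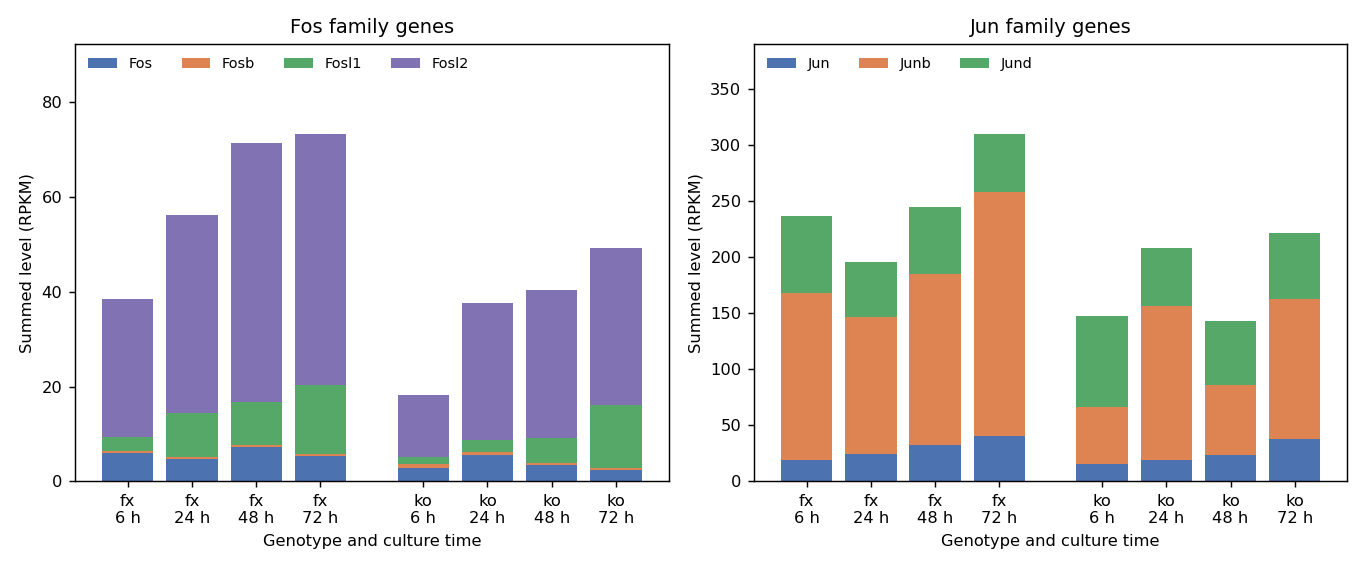
Summed level in RPKM (stacked bars, from 0) of the Fos family genes (left) and the Jun family genes (right) in each library, by genotype and culture time. Fosl2 is the largest part of the Fos bars in each library, and Junb is the largest part of each Jun bar except that of the ko/ko library of 6 h.

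Some other genes of the same response were lower in the ko/ko cells as well. Of 31 other immediate early genes, 3 were downregulated in the ko/ko cells at the adjusted limit and 0 upregulated, where 2.22% of all genes were called, and the median log2 fold change was -0.37, against 0.03 for all genes tested. Klf10, a zinc finger gene of TGF-β and BMP signaling that the study also picked from these data, had a log2 fold change of -1.63 (adjusted p = 0.0243), Arc, a gene of neuronal and serum responses, of -1.56 (adjusted p = 0.0383) and Tiparp, an ADP-ribosyltransferase induced through the aryl hydrocarbon receptor, of -1.32 (adjusted p = 0.0165). In the libraries of 24 h, Klf10 was at 204 CPM in the fx/fx cells and at 207 CPM in the library labelled ko/ko, against 52.5 to 102 CPM in the other ko/ko libraries. The 24 h libraries were likewise not lower in the ko/ko cells for Arc, at 73.2 CPM in the fx/fx library and 76.3 CPM in the one labelled ko/ko, or for Tiparp, at 84.7 and 96.1 CPM. With the block 13 of the 31 were lower, where 11.4% of all genes were lower, and 1 was higher, where 11.3% were, and for time 7 of the 31 were higher and 0 lower at the study's limit, where 3.50% of all genes were higher. The largest of these differences were those of Cyr61 (2.03), a matricellular protein gene, and Myc (1.74).

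Of 10 other AP-1 partners tested of 12, with a median log2 fold change of -0.33, 0 passed the adjusted limit and 3 had an unadjusted p under 0.05 (14.0% of all genes), namely Maf (log2 fold change -1.01), Maff (-0.92) and Mafk (0.46). With the block 3 of the 10 (Maf, Maff and Atf7) were lower and 1 (Mafk) higher, and here as in the lists that follow these counts stand against 11.4 and 11.3% of all genes. Genes of these lists named for an unadjusted p or for a call with the block were chosen after their values were seen. Maff, a small Maf protein, was at 84.2, 110 and 92.6 CPM in the fx/fx and 33.1, 62.3 and 56.8 CPM in the ko/ko cells at 6, 48 and 72 h (adjusted p = 0.153 without and 0.00309 with the block), and at 88.5 and 78.3 CPM at 24 h. Maf was at 28.0 and 28.4 CPM at 24 h. Jdp2, a repressor of AP-1, had a log2 fold change of -0.19 (adjusted p = 0.737). Nab1 and Nab2, the co-repressors of the Egr factors, had 0.08 and 0.25, and 0 of the 3 genes tested of their list passed a limit without the block. With it 1 of the 3 was lower, the related Egr3 (log2 fold change -1.27, adjusted p = 0.01996), which was at 2.63 CPM in the fx/fx library of 24 h and at 0.938 CPM in that labelled ko/ko. Among the regulators upstream (median -0.18), 0 of 15 passed the adjusted limit, and Mkl1 (-0.92) and Mkl2 (-0.56), the actin-regulated partners of serum response factor, were lower at the unadjusted p, 2 of 15 where 14.0% of all genes had one. With the block 4 of the 15 were lower (11.4% of all genes), with Mkl1 (adjusted p = 0.0107), Mkl2 (adjusted p = 0.0111) and the kinase gene Rps6ka3 (adjusted p = 0.0117) among them. The 1 that was higher (11.3% of all genes) was the kinase gene Map2k2 (adjusted p = 0.0364). At 24 h Mkl1 was at 270 and 190 CPM and Mkl2 at 95.9 and 80.3 CPM. Mapk3 (ERK1), a kinase of this pathway, had a log2 fold change of -0.37 (adjusted p = 0.722) without the block and of -0.42 (adjusted p = 0.0501) with it. Of the 9 dual-specificity phosphatases (median -0.40), which switch off ERK, p38 and JNK, 0 passed the adjusted limit and 1, Dusp2, was lower at the unadjusted p (-1.24, 14.0% of all genes), while Dusp1 had -0.40 and Dusp16 -0.32. With the block 3 of the 9, Dusp2, Dusp4 and Dusp6, were lower (11.4% of all genes) and 0 higher. At 24 h Dusp2 went the other way, with 1.24 CPM in the fx/fx library and 3.002 CPM in that labelled ko/ko. Dusp4 and Dusp6 were lower in the latter at 24 h too, with 32.7 and 16.5 CPM for Dusp4 and 28.2 and 13.2 CPM for Dusp6.

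Of 12 AP-1 target genes tested of 14, with a median log2 fold change of -0.54, 0 were downregulated at the adjusted limit, and 1, Mmp3, lay past it in the other direction. Mmp3 had at most 5 counts in an fx/fx library and passed the filter on low counts through its ko/ko libraries alone, so its call is no support for a change of these genes. Mmp3, the gene of the protease stromelysin-1, was at 0.0627, 0.155 and 0.131 CPM in the fx/fx libraries, near the floor of 3 counts, and at 1.24, 2.40 and 0.950 CPM in the ko/ko libraries of 6, 48 and 72 h, and it was at 0.0751 CPM in the library labelled ko/ko at 24 h. With the block 8 of the 12 were lower, against 11.4% of all genes, and 2 higher, Mmp3 being 1 of them, against 11.3%. Of the 8 heat shock genes (median -0.05), markers of cell stress, 0 passed the adjusted limit for genotype and 1, Bag3, was lower at the unadjusted p (-0.72, 14.0% of all genes) but at 24 h was at 115 CPM in the fx/fx library and 151 CPM in that labelled ko/ko, and Hsp90aa1 and Hsph1 had log2 fold changes of -0.16 and 0.48. With the block 2 of the 8, Bag3 and Hspb1, were lower and 1, Hsph1, was higher (11.4 and 11.3% of all genes). For time, at the study's limit, where 3.50% of all genes were higher and 1.85% lower, 3 of the 12 AP-1 targets were higher later than at 6 h (Ccnd1, Lif and Timp1, with log2 fold changes of 1.94, 1.30 and 1.65), as were Dusp4 (1.10) and Dusp6 (1.24) of the 9 phosphatases, Egr3 (1.17) and the SRF partner Elk4 (1.18), and the heat shock gene Hspb1 was lower (-1.33). Over all 8 libraries and without the block, 0 genes of these lists passed the adjusted limit for genotype, as 0 of all genes did. At the unadjusted p 6 of the 31 other immediate early genes were lower and 1 higher, where 10.2% of all genes had one. With the block 1 gene of the lists passed the adjusted limit, Cyr61 (lower), where 0.337% of all genes did. At the unadjusted p 13 of the 31 were then lower and 1 higher, where 24.8% of all genes had one. DESeq2 and limma were not counted over these lists.

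The genes with a profile most like that of Fos, by the root mean square distance of centred log2 CPM over the 8 libraries among 12063 genes of at least 1 CPM, were Ptprm, Ece1, Slc6a6, 2010111I01Rik and Tmem200b, at 0.13 to 0.15, where the spread of Fos itself was 0.52. For example, Ptprm, a receptor tyrosine phosphatase of cell contacts, was at 89.9, 84.0, 113 and 78.5 CPM in the fx/fx libraries and at 39.7, 90.4, 50.0 and 47.3 CPM in the ko/ko libraries. For Fosl1 they were AI506816, Myc, Vcan, Has2 and Mdn1, at 0.22 to 0.29 with a spread of 1.10 for Fosl1. Myc, a growth regulator of the same early response, was at 57.0, 164, 135 and 202 CPM and at 33.4, 57.7, 76.3 and 195 CPM, and Has2, which makes hyaluronan, at 20.8, 55.4, 44.1 and 112 CPM and at 10.6, 21.3, 23.4 and 82.9 CPM. The nearest member to Fos was Junb at 0.49, at rank 2589 of the 12063 genes, and the nearest to Fosl1 was Jun at 0.66, at rank 238, so no member was among the genes most like either.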

How the data were processed

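Total RNA libraries (Illumina TruSeq) of 8 cultures were sequenced, per the labels as single reads of 50 bases, whereas the study's methods name paired reads. The authors aligned the reads to mm9 with TopHat2 2.0.8b and counted them with HTSeq, and they deposited whole-number counts per gene symbol without normalization. The annotation and strand setting of the counting are not given in the sources used here. The 5 HTSeq counters were left out; multi-mapped alignments, not counted by HTSeq, were 41.3 to 49.6% of the total. CPM and RPKM were computed here from these counts, RPKM with exon lengths of GENCODE M1 on mm9 (95.7% of symbols matched).

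Tests used edgeR 4.0.16 in R 4.3.3, with TMM scaling, the filter on low counts (10 counts, 15 in total), the quasi-likelihood test and Benjamini-Hochberg adjustment over all genes tested. Genotype was tested over the 6 libraries of 6, 48 and 72 h, 3 per genotype, without another term, and time and the interaction over 7 libraries. A gene was called at an adjusted p of at most 0.05, or at an unadjusted p under 0.05 with an absolute log2 fold change over 1. The latter is called the study's limit, although its text does not say whether the p was adjusted and elsewhere names a Q value. Libraries that share a culture time moved together about their genotype's mean (correlations of 0.73, 0.57 and 0.87 across genes at 6, 48 and 72 h, and -0.28 at 24 h when all 8 libraries are used), so culture time, by which the labels pair the libraries, was used as a block. P-values measure the spread between these libraries, as no culture was repeated at a time. Alternatives were other scaling, DESeq2 1.42.0, limma 3.58.1 (offsets 0.5 for CPM and 0.1 for RPKM), other filters, all 8 libraries, the block, time as a trend, leaving out each library and, chosen after seeing the data, adding either library of 24 h alone. The tests were first run on simulated counts with set fold changes.

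The 10 genes and the lists were chosen with earlier results of these data known. The genes named are the 10; of each list, those past the adjusted limit or else the 2 with the highest mean level; the 5 nearest profiles of Fos and of Fosl1 (prior count 2); and those marked in the text. One gene that this rule names is not reported here.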

Additional observations from a re-analysis of the deposited data

Results flagged for a closer look

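The time course of Egr1 went opposite ways in the genotypes: each later fx/fx library lay above that of 6 h, and each later ko/ko library, the one labelled 24 h included, lay below its own. The difference between the genotypes was -1.03217 on the log2 scale (adjusted p = 1.00, unadjusted p under 0.05 in edgeR's quasi-likelihood test over all genes), with 1 library per genotype at 6 h. In the 20 groups examined, the 4 libraries of each genotype for each of the 10 genes, no highest or lowest library had a gap to its neighbour, as a share of the group's range, over Dixon's 95% critical value. This share depends on the scale of the levels. For Fosl2, on the log2 scale, the ko/ko library of 6 h lay 1.16 below its neighbour of 24 h, where the range was 1.35.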

How the results depend on the processing

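The 3 scalings moved the median log2 fold change of all genes to between -0.05 and 0.03. For genotype, 0 members were called at the adjusted limit, except 2 with DESeq2 (Fos, Junb), 4 with culture time as a replicate block over 6 libraries (Fos, Fosl1, Fosl2, Junb), 2 in 7 libraries with a term for later times (Fos, Fosl2, where 6.35% of all genes were called), 1 (Fos, 3.66% of all genes) when the fx/fx library of 24 h was added alone, and 0 to 1 without 1 library, the 1 being Junb (adjusted p = 0.0278) without the ko/ko library of 72 h. In that last fit 383 of all 13373 genes passed the adjusted limit. At the study's limit 2 members were called, as were 964 of all 13121 genes. Over all 8 libraries 0 members were called with or without the block, where 663 and 463 of all 13053 genes were called. The count of members was likewise 0 when the library labelled ko/ko at 24 h was added alone (464 of all 13228 genes). It was 2 when the fx/fx library of 24 h was added alone (1029 of all 13208 genes). Both calls thus rest on leaving out the library labelled ko/ko at 24 h. These additions were chosen after seeing the data. Without 1 library the count of members at the study's limit ran from 1 to 4. Fos and Junb were joined by Fosl2 and Egr2 without the fx/fx library of 6 h or the ko/ko library of 72 h. Junb alone stayed without the fx/fx library of 48 h, and Fos alone without the fx/fx library of 72 h or the ko/ko library of 6 or 48 h. The number of all genes called moved as well, from 781 of 13303 without the fx/fx library of 48 h to 1343 of 13373 without the ko/ko library of 72 h. Over 19 alternatives the log2 fold change of Fos lay between -1.24 and -0.70 (adjusted p from 0.000811 to 0.773) and that of Junb between -1.61 and -0.77 (adjusted p from 0.00136 to 0.773). Fosl1, called with the block, lay between -1.40 and 0.13 and was below 0 in 17 of the 19.

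For time, 0 members passed the adjusted limit, except 3 with DESeq2. At the study's limit 1 was called, and 2 (Fosl1, Fosl2) with DESeq2 size factors, DESeq2, no filter, a minimum of 10 counts in every library, all 8 libraries, the 6 libraries of 6, 48 and 72 h, or no genotype term. In these settings the number of all genes called ran from 463 of 13525, over all 8 libraries, to 921 of 18285 with no filter. Without 1 library the count was 1 to 2, with Egr2 in place of Fosl2 without the ko/ko library of 6 h. Over 15 distinct alternatives Fosl1 kept a log2 fold change of 1.83 to 2.49, and the trend gave 0.68 per doubling of culture time. No block by culture time can enter the time or interaction fits, since time is what they test. The interaction of Egr1 lay between -1.22 and -0.86 over 8 distinct alternatives, with an unadjusted p under 0.05 in 7 and an adjusted p of 0.939 at the lowest. Depth limits Fosb, with 35 to 102 counts per library, and the counting limits Fosl1, which shares exonic bases with Ccdc85b.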
